A study of Rattus norvegicus with 18 samples.

Results

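The effect of 50 electric pulses on PE-treated cells was examined in 6 of the 18 libraries of a study that used H9C2, a cell line from the heart of a rat embryo. The 3 P_ES50 libraries came from cells treated with PE, a compound the labels do not spell out, at 50 µmol/L for 48 h and then given 50 pulses of 100 µs at 1500 V/cm. The 3 P libraries came from cells given the same PE treatment and no pulses, so PE is common to both groups and the pulses are what sets them apart. The members are all 32508 nuclear genes of the deposited table, of which 11883 had at least 1 FPKM (reads scaled to gene length and library depth) in at least 3 libraries and were tested. Where a value needs them, 3 other groups of 3 libraries are used: P_ES10 (PE and 10 such pulses), ES50 (50 pulses, no PE) and NC (neither). The labels call the cell type myocardium, all cells are of 1 line, and the labels do not state how long after the pulses cells were harvested.

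A strong pulsed field opens pores in the plasma membrane, so that ions and small molecules pass until the membrane reseals, and the method is used in the heart to ablate tissue. Calcium entry, loss of ions and damage to mitochondria are known to follow in many cell types. Cells answer such injury through a few well-studied programmes. NRF2 is a transcription factor that is released from its inhibitor KEAP1 under oxidative stress and drives genes for glutathione, thioredoxin and heme breakdown. ATF4 is translated when the kinases of the integrated stress response are active, mitochondrial stress included, and drives amino acid transport and synthesis. YAP and TAZ are coactivators that enter the nucleus in spread cells under tension and act with TEAD factors on genes such as Ctgf and Cyr61.

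The libraries differed in how their reads were divided. Mitochondrial genes held 48.6 ± 1.66% of the reads in P_ES50 and 5.48 ± 0.104% in P (SD, n = 3 each). An exact permutation test, two-sided, gave p = 0.1, which is the lowest value possible with 3 libraries a group. This left 7813779 to 8060502 reads on nuclear genes in P_ES50 libraries and 13221072 to 14665855 in P libraries, while 10821 to 10826 nuclear genes in P_ES50 and 10922 to 10965 in P reached 1 FPKM. In the deposited FPKM the median nuclear gene was nearly level between the groups. Changes are therefore given relative to the median nuclear gene, at -0.01 on the log2 scale, and scaling to all reads would move that median to -0.77. On that other scale the median of each gene list below was under 0, so a rise here is a rise within the nuclear RNA. In these bulk libraries fewer cells of a type and less RNA per cell cannot be told apart. Each change is a log2 fold change of FPKM plus 1, with its standard error, and on this scale the change of genes with low values is understated. Adjusted p-values are those of limma over all tested genes, and a gene was called at an adjusted p under 0.05. The labels number the replicates without saying that they are separate cultures, and the p-values may thus reflect technical spread alone.

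In P_ES50 cells 1651 nuclear genes rose (13.9% of those tested) and 1691 fell (14.2%) relative to P cells. These shares are the background for the list counts below, and no list was tested against them. Most changes were small: 75 genes rose at least 2-fold (0.631%) and 114 fell at least 2-fold (0.959%). The 3 P_ES50 libraries lay all above or all below the 3 P libraries for 5997 genes (50.5%). P_ES50 libraries correlated with each other at 0.978 to 0.979 across the tested genes, P libraries at 0.986 to 0.987, and P_ES50 with P libraries at 0.963 to 0.968. These correlations run across genes, which are not independent replicates.

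Most markers of mature heart muscle were under 1 FPKM in both groups. Nkx2-5 had 0 FPKM in all 6 libraries, and Myh6, Myh7, Actc1, Nppa and Ryr2 did not exceed 0.136 FPKM in any. Of 17 cardiomyocyte markers, 11 were under 1 FPKM in all 6 libraries. The summed level of the 17 was 61.3 to 79.2 FPKM in P_ES50 and 47.1 to 55.8 in P. Of the 6 that were tested 2 rose and 0 fell, beside 13.9% and 14.2% of all nuclear genes. The median of these 6 was 0.28, with a range of -0.22 to 0.80. Myod1, the myoblast determination factor, averaged 35.3 ± 1.06 FPKM in P_ES50 and 23.4 ± 2.19 in P (0.58 ± 0.06, adjusted p = 3.05e-06 by limma). It was the 1 that rose of 5 tested myoblast markers, of which Cdh15, the cadherin of myoblasts, averaged 88.2 ± 0.818 FPKM in P_ES50 and 109 ± 4.49 in P (-0.31 ± 0.04), and the troponin gene Tnnt3 fell as well. Tnni3, cardiac troponin I, was detected, at 1.83 to 2.61 FPKM in P_ES50 and 2.18 to 2.71 in P. Tnnt2, cardiac troponin T, averaged 8.86 ± 1.30 FPKM in P_ES50 and 7.51 ± 0.367 in P, with overlapping libraries (0.20 ± 0.12, adjusted p = 0.239 by limma). Endothelial and macrophage cells left little trace, with Cdh5 and Ptprc at 0 FPKM in all 6 libraries. Of the defining markers of contractile heart muscle, both troponin genes named here were thus detected, while the myosin heavy chains, cardiac actin and Nkx2-5 were at or near 0.

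Promoters of a few genes of the groups described next were taken from RefSeq (build GRCr8) as the 250 bases before the gene's start, on the gene's own strand. Ctgf and Cyr61 (Ccn2 and Ccn1 in RefSeq) and Amotl2 were the YAP target genes with the largest decreases, and capitals mark GGAATG, the core of a TEAD site, or its reverse complement.
Ctgf, chr1:22624615-22624864, minus strand: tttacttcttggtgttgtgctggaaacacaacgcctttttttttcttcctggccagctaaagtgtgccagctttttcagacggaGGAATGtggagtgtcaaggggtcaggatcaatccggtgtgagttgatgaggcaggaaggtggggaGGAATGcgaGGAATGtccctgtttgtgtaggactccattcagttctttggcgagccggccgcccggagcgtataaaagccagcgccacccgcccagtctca
Cyr61, chr2:237225690-237225939, minus strand: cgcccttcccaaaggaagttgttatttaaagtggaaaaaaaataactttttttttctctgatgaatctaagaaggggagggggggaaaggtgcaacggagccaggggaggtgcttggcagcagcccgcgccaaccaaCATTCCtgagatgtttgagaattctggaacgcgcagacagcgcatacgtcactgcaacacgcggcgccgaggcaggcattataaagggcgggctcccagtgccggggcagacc
Amotl2, chr8:112182376-112182625, plus strand: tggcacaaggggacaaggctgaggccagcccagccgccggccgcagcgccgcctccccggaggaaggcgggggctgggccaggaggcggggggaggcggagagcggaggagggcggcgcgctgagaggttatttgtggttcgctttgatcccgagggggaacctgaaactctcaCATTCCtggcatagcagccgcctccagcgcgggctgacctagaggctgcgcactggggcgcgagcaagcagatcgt

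The Ctgf window holds 3 copies of GGAATG, which begin 166, 101 and 92 bases before the start. Both other windows hold 1 copy, which begins 113 bases before the start of Cyr61 and 76 before that of Amotl2. Searched on both strands, GGAATG was in 11 of the 20 YAP and SRF targets that matched the RefSeq table (55.0%) and in 12.1% of all 33469 promoter windows of this length. A list gene counts if any of its windows holds the motif, whereas the background counts single windows. The 11 include genes that rose, such as Acta2, as well as genes that fell.

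For the stress genes that rose, the promoters of Srxn1 (NRF2 targets) and Chac1 (ATF4 targets) are shown, with TGAGNNNGC, a form of the antioxidant response element, and TGATGNAA, the core of the element bound by ATF4, in capitals on either strand. Both were picked because their windows hold the motif, and neither has the largest rise of its list. The largest rises were Hmox1 (NRF2 targets) and Gdf15 (ATF4 targets). Neither of these, nor Slc7a11, was among the genes found to hold the motif searched for their list. Only 18 of 21 NRF2 targets and 25 of 27 ATF4 targets could be matched by symbol.
Srxn1, chr3:161064562-161064811, plus strand: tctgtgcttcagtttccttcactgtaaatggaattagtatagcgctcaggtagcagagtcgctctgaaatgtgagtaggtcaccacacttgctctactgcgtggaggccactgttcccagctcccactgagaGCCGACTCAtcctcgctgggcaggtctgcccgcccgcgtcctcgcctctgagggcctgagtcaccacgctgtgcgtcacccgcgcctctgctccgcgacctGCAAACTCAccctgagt
Chac1, chr3:126795881-126796130, plus strand: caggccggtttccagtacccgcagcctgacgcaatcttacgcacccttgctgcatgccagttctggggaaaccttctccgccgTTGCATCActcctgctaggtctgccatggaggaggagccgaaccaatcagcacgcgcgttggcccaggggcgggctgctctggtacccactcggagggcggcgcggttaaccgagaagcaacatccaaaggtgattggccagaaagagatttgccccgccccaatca

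TGAGNNNGC was in 3 of 18 matched NRF2 targets (16.7%) and in 14.2% of all windows, and TGACNNNGC, the other form of that element, was in 5 of 18 (27.8%) and in 10.1%. TGATGNAA was in 4 of 25 matched ATF4 targets (16.0%) and in 3.4% of all windows. TGAGNNNGC can overlap TGAGTCA, the site of AP-1 factors, which was in 4 of the 18 NRF2 targets (22.2%) and in 4.05% of all windows. Here too a list gene counts by any of its windows and the background by single windows. These matches describe letters in a window and do not show that a factor binds there.

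Of the 21 tested targets of NRF2, 19 rose and 0 fell, with a median of 0.80. Hmox1 encodes heme oxygenase 1, which opens the heme ring to free iron and biliverdin (ENSRNOG00000014117, chromosome 19, 14508616 to 14515456 in build Rnor 6.0). It stood at 1978, 2019 and 2012 FPKM in the P_ES50 libraries and at 144, 148 and 154 FPKM in the P libraries. It was the largest rise under the rule for named genes (3.74 ± 0.08, adjusted p = 3.86e-14 by limma), and was 2.85 when scaled to total reads. Slc7a11, the cystine importer that feeds glutathione synthesis, had 10.2, 10.3 and 10.3 FPKM in P_ES50 and 1.58, 1.69 and 1.48 in P (2.13 ± 0.10). Srxn1, which repairs oxidised peroxiredoxins, had 97.4, 110 and 102 FPKM in P_ES50 and 28.5, 27.7 and 29.4 in P (1.82 ± 0.17). In all 3 genes each P_ES50 library was above each P library, as in 24.0% of nuclear genes.

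The quinone reductase Nqo1 averaged 356 ± 16.2 FPKM in P_ES50 and 143 ± 0.803 in P (1.31 ± 0.05). Txnrd1, the cytosolic thioredoxin reductase, averaged 137 ± 3.81 FPKM in P_ES50 and 55.1 ± 1.44 in P (1.30 ± 0.04). Akr1b8, an aldo-keto reductase that is not on the NRF2 list, averaged 280 ± 9.37 FPKM in P_ES50 and 63.2 ± 3.24 in P (2.13 ± 0.08). Smaller rises were those of Gclm, the regulatory subunit of glutamate-cysteine ligase (1.14 ± 0.11), the glutathione transferase Gstp1 (0.73 ± 0.03) and Ftl1, the ferritin light chain (0.80 ± 0.04, and 0.24 after quantile normalization). Osgin1 rose by 1.52 ± 0.32, to 3.69 ± 0.275 FPKM in P_ES50, against 0.632 ± 0.0910 in P. Gsta4 and Abcc4 were the 2 members not called. The adjusted p of the genes given here without one was at most 0.00226 by limma.

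Called genes of the integrated stress response also moved one way. Of the 27 tested ATF4 targets, 22 rose and 0 fell, with a median of 0.50. Gdf15, a secreted stress cytokine of the TGF-beta family, had 8.93, 11.2 and 9.35 FPKM in P_ES50 and 0.559, 1.03 and 0.923 in P (2.56 ± 0.18, adjusted p = 8.18e-08 by limma), and rests on 397 recovered reads in P_ES50 and 61 in P. Chac1, which degrades glutathione, had 24.9, 25.7 and 23.6 FPKM in P_ES50 and 9.89, 10.3 and 10.2 in P (1.21 ± 0.09). Trib3, a pseudokinase that restrains ATF4, rose by 1.04 ± 0.08, the transcription factor Cebpb by 1.09 ± 0.16, and Atf5, a factor of the mitochondrial unfolded protein response, by 0.66 ± 0.03. Ddit3 (CHOP), which promotes death under prolonged ER stress, averaged 52.9 ± 4.47 FPKM in P_ES50 and 32.3 ± 0.529 in P (0.69 ± 0.18, adjusted p = 0.00831 by limma). Atf3 averaged 6.92 ± 0.187 FPKM in P_ES50 and 3.88 ± 0.389 in P (0.70 ± 0.17, adjusted p = 0.00572 by limma).

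The chaperone branches of the ER response did not share that direction. In the list for the unfolded protein response of the ER, 4 genes rose and 6 fell of 24 tested, with a median of -0.04. The 4 were Dnajb9, Herpud1, Ern1 and Ddit3, of which Herpud1 and Ddit3 are ATF4 targets as well, while the protein disulfide isomerases P4hb, Pdia3 and Pdia6 were among those that fell. Of 20 tested cytosolic aminoacyl-tRNA synthetases, whose genes ATF4 is known to drive, 10 rose and 1 fell, with a median of 0.18.

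**Figure D1:**
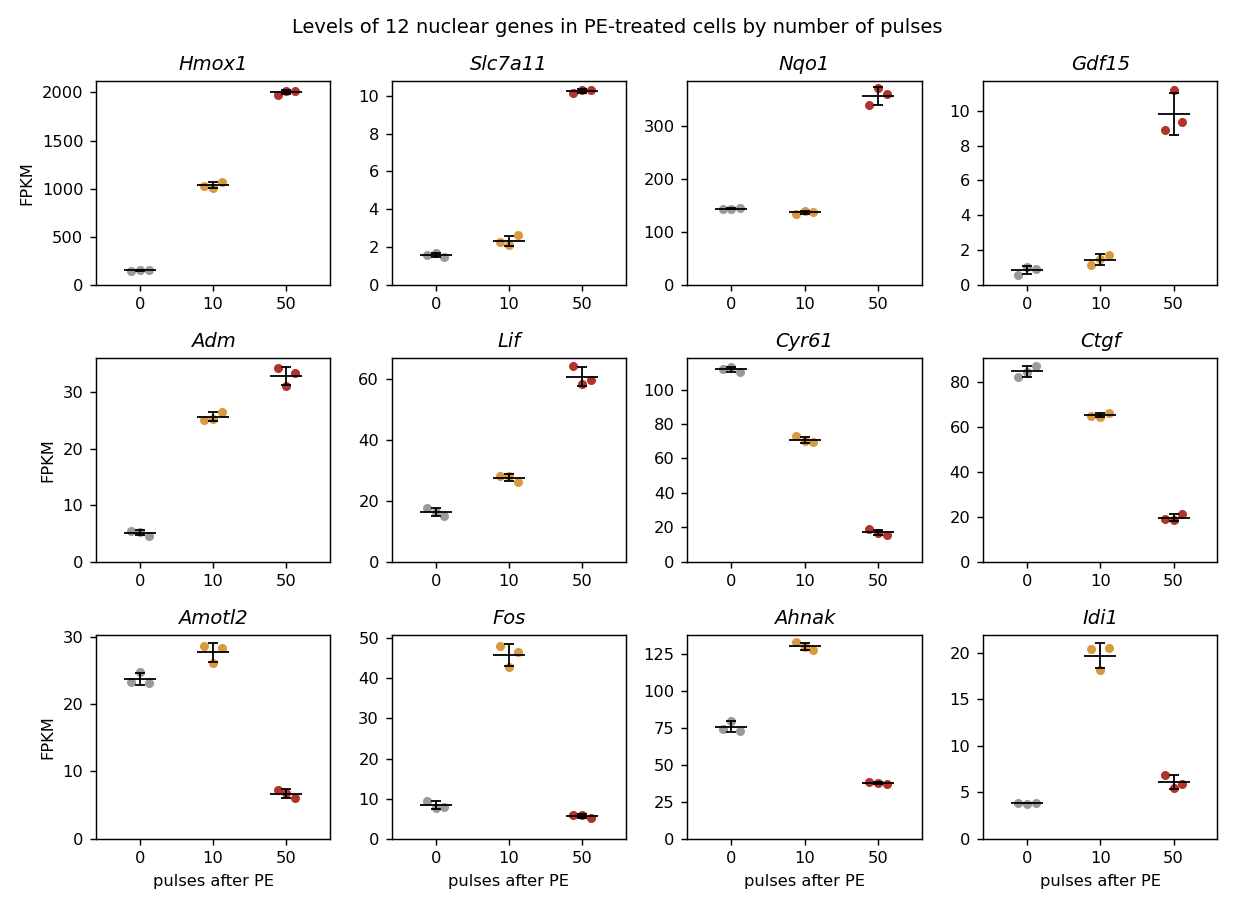
FPKM of 12 nuclear genes in each library of PE-treated cells given 0 (P), 10 (P_ES10) or 50 pulses (P_ES50). Points are the 3 libraries of a group and bars the mean ± SD, and Hmox1, Slc7a11, Nqo1 and Gdf15 were highest after 50 pulses, Cyr61 and Ctgf lowest, and Fos, Ahnak and Idi1 highest after 10.

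Among immediate early genes, which growth and stress signals switch on within minutes, 11 rose and 5 fell of 27 tested, with a median of 0.23. Those that rose most were Ier3 (1.82 ± 0.08), Myc (1.70 ± 0.16), Egr1 (1.59 ± 0.14) and Maff (1.51 ± 0.06). Egr1 had 23.2, 21.5 and 22.1 FPKM in P_ES50 and 8.11, 6.38 and 5.89 in P. Myc, the growth factor-responsive oncogene, averaged 49.3 ± 1.67 FPKM in P_ES50 and 14.6 ± 1.53 in P. Fosl1, an AP-1 subunit, averaged 157 ± 1.33 FPKM in P_ES50 and 78.3 ± 2.76 in P (0.99 ± 0.08), and Zfp36, which binds AU-rich mRNAs and speeds their decay, rose by 0.86 ± 0.06. Fos itself fell, with 5.82, 6 and 5.07 FPKM in P_ES50 and 9.49, 7.73 and 7.92 in P (-0.50 ± 0.12, adjusted p = 0.00504 by limma). The other members that fell were Cyr61, Srf, Ier5l and Junb.

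Of 16 tested phosphatases and feedback inhibitors of MAP kinase signalling 3 rose and 1 fell, beside 13.9% and 14.2% of all nuclear genes, so the count is near the background. Dusp5, a nuclear phosphatase that acts on ERK, had 111, 120 and 116 FPKM in P_ES50 and 35.1, 34.6 and 30.4 in P (1.76 ± 0.06, adjusted p = 7.94e-12 by limma). Dusp1, which acts on p38 and JNK, had 29.2, 31.9 and 29.5 FPKM in P_ES50 and 54.2, 50.4 and 54.7 in P (-0.79 ± 0.08, adjusted p = 5.74e-06 by limma). Phlda1, a pleckstrin-homology protein induced by growth signals, averaged 232 ± 4.18 FPKM in P_ES50 and 80.3 ± 1.94 in P (1.52 ± 0.04).

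Secreted signals went in both directions. Lif, a cytokine of the interleukin-6 family, had 64.4, 58.4 and 59.6 FPKM in P_ES50 and 17.7, 16.2 and 15.0 in P (1.84 ± 0.13, adjusted p = 7.77e-08 by limma). Adm, the precursor of the vasodilator adrenomedullin, had 34.2, 31.0 and 33.3 FPKM in P_ES50 and 5.44, 5.25 and 4.63 in P (2.47 ± 0.08, adjusted p = 3.91e-12 by limma). The neutrophil chemokine Cxcl1 averaged 121 ± 3.88 FPKM in P_ES50 and 43.4 ± 1.26 in P (1.46 ± 0.47, adjusted p = 0.0293 by limma, and 0.0626 to 0.0765 with any 1 of the 6 libraries left out). Its call was also lost with a pseudocount of 0.1 (adjusted p = 0.312 by limma), with no filter (0.0633) and with nuclear reads as the scale (0.0829). The groups do not overlap for any of the 3 genes, nor for 50.5% of all nuclear genes. The standard error of Cxcl1 pools the spread of all 18 libraries, among them ES50, where it had 3.42 ± 3.70 FPKM.

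Other genes of the NF-kB and cytokine list mostly fell or were not called. Of 20 tested members 10 fell and 3 rose, with a median of -0.42, and the 3 were Lif, Cxcl1 and the prostaglandin synthase Ptgs2 (0.41 ± 0.11). Ccl7, a monocyte chemokine, averaged 10.5 ± 1.58 FPKM in P_ES50 and 26.0 ± 1.24 in P (-1.24 ± 0.21, but not called with a pseudocount of 0.1, adjusted p = 0.145 by limma), and Csf1, the macrophage growth factor, 18.2 ± 1.92 FPKM in P_ES50 and 30.0 ± 2.66 in P (-0.69 ± 0.12). Of 13 tested interferon genes 6 fell and 1 rose, with a median of -0.45. Irf7, the factor that amplifies interferon induction, averaged 4.31 ± 0.633 FPKM in P_ES50 and 8.03 ± 0.565 in P (-0.77 ± 0.09). Of 13 hypoxia targets 3 rose and 5 fell: Adm rose with Hif1a (0.84 ± 0.06) and Vegfa (0.30 ± 0.07), and Kdm3a, a histone demethylase gene driven by HIF, fell by 0.54 on the log2 scale. Adm thus rose without the hypoxia list as a whole, whose median was -0.08.

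Targets of YAP were among the largest falls. Cyr61, a matricellular protein that YAP and TEAD induce, had 18.7, 16.9 and 15.5 FPKM in P_ES50 and 112, 113 and 110 in P. The log2 change was -2.65 ± 0.06 (adjusted p = 8.99e-14 by limma; ENSRNOG00000014350, chromosome 2, 251529354 to 251532312 in build Rnor 6.0). Ctgf, the related connective tissue growth factor, had 19.1, 18.5 and 21.4 FPKM in P_ES50 and 82.4, 84.7 and 87.2 in P (-2.05 ± 0.07; ENSRNOG00000015036, chromosome 1, 21851660 to 21854773). Amotl2, an angiomotin that YAP induces and that holds YAP in the cytoplasm, had 7.31, 6.81 and 6.04 FPKM in P_ES50 and 23.2, 24.8 and 23.1 in P (-1.68 ± 0.07). All 3 genes were lower in each P_ES50 library than in any P library, as were 26.5% of nuclear genes. The rule for the largest changes takes only genes without overlap. The promoters of all 3 are those shown above.

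Nuak2 (-1.30 ± 0.11) and Ajuba (-1.03 ± 0.10) fell as well, and the receptor tyrosine kinase Axl averaged 76.7 ± 1.21 FPKM in P_ES50 and 106 ± 2.54 in P (-0.46 ± 0.03). The list held YAP and SRF targets together, and over its 27 tested members 8 rose and 11 fell, with a median of -0.08. That split depends on the processing: the median was -0.31 after quantile normalization. Over the settings other than scaling to total reads, 4 to 10 rose and 11 to 18 fell. Those that rose were mainly contractile genes known as targets of SRF. Ankrd1, a cardiac ankyrin repeat gene that YAP also drives, went against Cyr61 and Ctgf: it had 116, 106 and 122 FPKM in P_ES50 and 64.3, 65.8 and 69.5 in P (0.77 ± 0.06, adjusted p = 1.06e-07 by limma). Tagln, a smooth muscle actin-binding protein, averaged 836 ± 10.2 FPKM in P_ES50 and 655 ± 22.4 in P (0.35 ± 0.03, but -0.20 after quantile normalization). Smooth muscle markers as a group were not clear, with 4 that rose and 1 that fell of 9 tested and a median of 0.14 that was -0.09 after quantile normalization.

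Beyond these lists, the largest falls under the rule for named genes included receptors and signalling regulators. Ackr3, a scavenging chemokine receptor, had 11.7, 10.97 and 10.2 FPKM in P_ES50 and 44.1, 42.5 and 41.4 in P (-1.87 ± 0.11). Rgs2, which turns off Gq signalling, averaged 7.33 ± 1.00 FPKM in P_ES50 and 26.1 ± 1.82 in P (-1.71 ± 0.17). Fzd2, a Wnt receptor, averaged 4.05 ± 0.704 FPKM in P_ES50 and 12.3 ± 0.469 in P (-1.40 ± 0.10). The zinc transporter Slc39a13 fell by 1.63 on the log2 scale, the lectin-like gene Clec2g by 1.75, and the cholesterol acyltransferase Lcat by 1.51. Tstd1 fell by 1.67, and with a pseudocount of 0.1 its adjusted p was 0.0911 by limma. The 117-base miRNA gene Mir3120 changed by -2.80 ± 0.21 on 11 recovered reads in P_ES50 and 190 in P. A poly(A) library does not measure the mature miRNA.

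**Figure D2:**
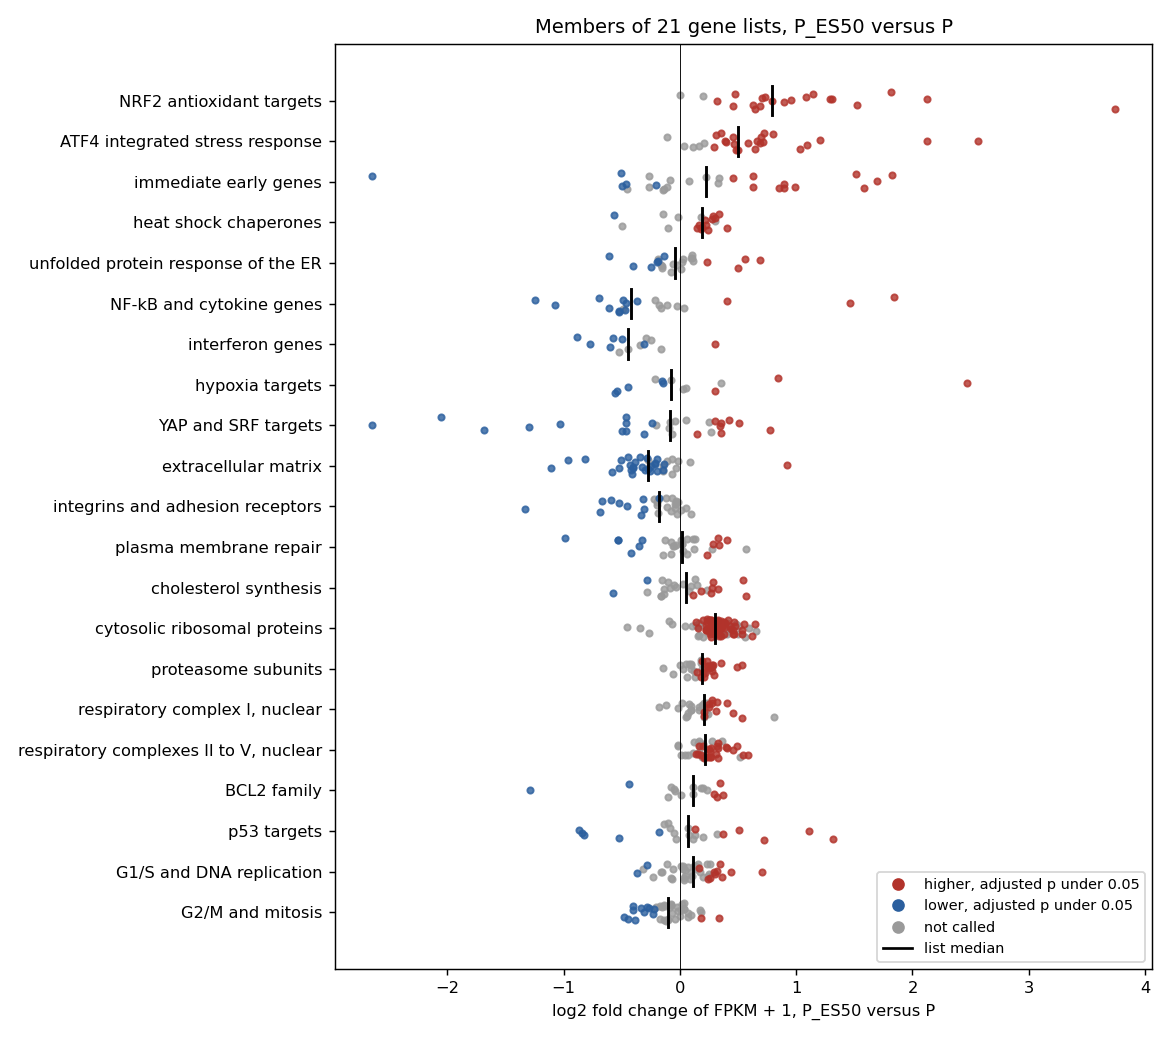
Log2 fold change of FPKM + 1, P_ES50 versus P, for each tested member of 21 gene lists. Red members rose, blue members fell, grey ones were not called, and black bars are list medians: NRF2 and ATF4 targets lie to the right, extracellular matrix genes to the left, and YAP and SRF targets on both sides.

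Extracellular matrix genes mostly fell. Of 37 tested, 26 fell and 1 rose, with a median of -0.27. The fibrillar collagen gene Col3a1 averaged 338 ± 3.13 FPKM in P_ES50 and 455 ± 4.60 in P (-0.43 ± 0.04), and Col1a1 averaged 1241 ± 14.2 FPKM in P_ES50 and 1646 ± 41.8 in P (-0.41 ± 0.03, and -1.21 after quantile normalization). The microfibril collagen gene Col6a3 fell by 0.96 and Lox, which crosslinks collagen, by 0.28 on the log2 scale. These decreases stand beside a tendency of long genes to fall, described below: the members had a median gene length of 4333 bases, and protein-coding genes of 4000 to 8000 bases had a median of -0.08.

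The 1 matrix gene that rose was Col1a2, whose product joins that of Col1a1 in type I collagen. It had 521, 920 and 952 FPKM in P_ES50 and 289, 447 and 519 in P, so the lowest P_ES50 library was only just above the highest P library. The change was 0.92 ± 0.26 (adjusted p = 0.0158 by limma) and was not called without P_ES50 replicate 2, P_ES50 replicate 3 or P replicate 1 (0.0656 to 0.0876). After quantile normalization it was 0.59, with an adjusted p of 0.105 by limma.

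Of 28 tested integrins and adhesion receptors 10 fell, 0 rose and 18 were not called, with a median of -0.18. The fibronectin receptor subunit Itga5 averaged 74.8 ± 1.25 FPKM in P_ES50 and 121 ± 4.95 in P (-0.69 ± 0.06). Itga7, a laminin receptor of muscle, averaged 133 ± 0.159 FPKM in P_ES50 and 212 ± 7.92 in P (-0.67 ± 0.04). Mcam, an adhesion molecule of the immunoglobulin family, had 5.28, 4.57 and 4.61 FPKM in P_ES50 and 13.7, 13.3 and 14.0 in P (-1.33 ± 0.21). Of 8 fibroblast markers, which include these collagens, 6 fell and 1, Col1a2, rose, and their summed level was 3799 to 4189 FPKM in P_ES50 and 4121 to 4383 in P.

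Genes for resealing the plasma membrane did not move as a group. Of 29 tested, 5 rose and 6 fell, with a median of 0.02 that was -0.10 after quantile normalization and -0.01 when scaled to nuclear reads. Ahnak, a giant scaffold that annexins recruit to membrane wounds, had 38.4, 37.6 and 37.1 FPKM in P_ES50 and 74.3, 79.8 and 72.8 in P (-0.98 ± 0.04, adjusted p = 1.35e-10 by limma). The ferlin Myof averaged 57.7 ± 0.935 FPKM in P_ES50 and 77.7 ± 1.97 in P (-0.42 ± 0.03), the calpain Capn2 27.1 ± 0.729 FPKM in P_ES50 and 39.6 ± 0.437 in P (-0.53 ± 0.05), and the caveolin Cav1 fell by 0.35. S100a11, an annexin partner, averaged 1561 ± 42.2 FPKM in P_ES50 and 1241 ± 64.3 in P (0.33 ± 0.04, but -0.32 after quantile normalization).

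Of 19 tested heat shock chaperone genes 12 rose and 1 fell, with a median of 0.19, but after quantile normalization 7 rose and 2 fell, with a median of 0.09. The small heat shock protein gene Hspb1 averaged 486 ± 7.26 FPKM in P_ES50 and 385 ± 20.1 in P (0.33 ± 0.04), and Dnajb1, the HSP40 partner of HSP70, rose by 0.40 ± 0.06. The 1 that fell was Dnajb4 (-0.56 ± 0.06). Hspa1b, the inducible HSP70 gene, had 0.253, 0.138 and 0.597 FPKM in P_ES50 and 0.905, 0.827 and 0.833 in P. Its change of -0.50 ± 0.18 was not called (adjusted p = 0.0540 by limma, 0.00745 to 0.0382 in 5 of the alternatives other than scaling to total reads), rests on 36 reads in P_ES50 and 168 in P, and may share reads with the near-identical Hspa1a. Of 36 proteasome subunits 18 rose and 0 fell, with a median of 0.19, and 9 rose after quantile normalization, with a median of 0.11. The autophagy receptor Sqstm1, itself a target of NRF2, averaged 255 ± 5.51 FPKM in P_ES50 and 157 ± 4.68 in P (0.70 ± 0.05).

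Genes of lipid synthesis are given by pathway, and the difference between pathways was not tested. Of 26 genes of cholesterol synthesis and uptake 8 rose and 2 fell, with a median of 0.05, beside 13.9% and 14.2% of all nuclear genes. Over the settings other than scaling to total reads, 3 to 10 rose and 1 to 5 fell. Idi1, the isomerase of the isoprenoid units, averaged 6.06 ± 0.752 FPKM in P_ES50 and 3.82 ± 0.0260 in P (0.55 ± 0.07). Msmo1, a sterol demethylation enzyme, averaged 41.4 ± 1.42 FPKM in P_ES50 and 62.3 ± 2.57 in P (-0.58 ± 0.11). Of 14 genes of fatty acid synthesis 2 rose and 5 fell, and 3 to 8 fell over the same settings. Among those that fell was the desaturase Scd2, with 23.4 ± 1.84 FPKM in P_ES50 and 47.0 ± 1.94 in P (-0.98 ± 0.06).

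The called changes of cytosolic ribosome genes were small rises. Of 87 tested ribosomal protein genes 58 rose and 0 fell, with a median of 0.30 and a range of -0.45 to 0.66, but after quantile normalization 16 rose and 6 fell, with a median of 0.11. Rplp0, of the ribosomal stalk, averaged 1258 ± 33.0 FPKM in P_ES50 and 867 ± 35.5 in P (0.54 ± 0.04, and 0.09 after quantile normalization). Rpsa, of the small subunit, averaged 801 ± 24.0 FPKM in P_ES50 and 603 ± 30.0 in P (0.41 ± 0.04, but -0.16 after quantile normalization). Of the ribosomal genes in the file, 32 share their symbol with another row, and reads may be split with pseudogenes. The members were short, with a median length of 552 bases, and protein-coding genes under 1000 bases had a median of 0.18. They were also high, at a summed 28924 to 30425 FPKM in P_ES50. Of protein-coding genes averaging at least 100 FPKM 58.7% rose, with a median of 0.20, beside 66.7% of the ribosomal genes.

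Among nuclear genes of the respiratory chain the calls were all upward. For complex I, 11 rose and 0 fell of 32 tested, with a median of 0.21, and of the 41 for complexes II to V 24 rose and 0 fell, with a median of 0.22. After quantile normalization 7 rose and 1 fell for complex I and 12 rose and 2 fell for complexes II to V, with a median of 0.14 in both. Uqcrq, of complex III, averaged 89.3 ± 6.02 FPKM in P_ES50 and 61.0 ± 5.99 in P (0.55 ± 0.06), Cox8a, of complex IV, 431 ± 21.9 FPKM in P_ES50 and 343 ± 15.1 in P (0.33 ± 0.05), and Ndufb7, of complex I, 86.4 ± 3.74 FPKM in P_ES50 and 69.2 ± 6.08 in P (0.32 ± 0.07). Median lengths were 708 bases for complex I and 726 for the others, again in the class of short genes with a median of 0.18. By level, 58.7% of protein-coding genes averaging at least 100 FPKM rose, and 24.8% of those at 10 to 100 FPKM. The shares here were 58.5% for complexes II to V and 34.4% for complex I. The partner mRNAs made in mitochondria stood far higher: all 13 rose, by 1.45 to 4.65 with a median of 4.02, and were still at a median of 3.12 when scaled to total reads.

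Genes that run the mitochondrial genome did not rise as a group beside its transcripts. Of 23 tested factors for mitochondrial transcription and RNA turnover 2 rose and 4 fell, with a median of -0.15. The count is near the background of 13.9% and 14.2% of all nuclear genes. Over the settings other than scaling to total reads, 1 to 3 rose and 2 to 10 fell. Tfam, which packages and transcribes mitochondrial DNA, had 16.7, 14.1 and 18.2 FPKM in P_ES50 and 12.3, 12.9 and 13.7 in P (0.31 ± 0.08, adjusted p = 0.0118 by limma, and 0.0649 without P_ES50 replicate 3 or 0.0545 without P replicate 1). Grsf1, a protein of mitochondrial RNA granules, averaged 18.9 ± 2.32 FPKM in P_ES50 and 26.5 ± 0.753 in P (-0.48 ± 0.08), and Fastk, which protects the ND6 mRNA, fell by 0.44.

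The outer membrane channel Vdac1 averaged 35.3 ± 1.25 FPKM in P_ES50 and 30.4 ± 0.794 in P, a change of 0.21 ± 0.07 close to the threshold (adjusted p = 0.0364 by limma, and 0.0574 to 0.114 without P_ES50 replicate 2 or 3 or any P replicate). The Vdac1 call was also lost with no filter (adjusted p = 0.0573 by limma), with nuclear reads as the scale (0.0610) and with quantile normalization (0.128). Smdt1, the EMRE subunit that the calcium uniporter needs, averaged 128 ± 15.3 FPKM in P_ES50 and 83.9 ± 3.14 in P (0.60 ± 0.07). Slc8b1, the exchanger that returns calcium to the cytosol, averaged 19.4 ± 0.148 FPKM in P_ES50 and 30.8 ± 1.34 in P (-0.64 ± 0.07). Among genes of fission, fusion and mitophagy 4 rose and 1 fell of 19, beside 13.9% and 14.2% of all nuclear genes. Dnm1l, which constricts mitochondria, averaged 14.0 ± 1.09 FPKM in P_ES50 and 12.6 ± 0.819 in P with overlapping libraries (0.14 ± 0.08, adjusted p = 0.233 by limma). The mitophagy kinase Pink1 rose by 0.35 ± 0.10 (adjusted p = 0.0188 by limma, and 0.0715 to 0.0764 without P_ES50 replicate 1, P replicate 2 or P replicate 3), and Mief2, a DNM1L receptor, fell by 0.66 (adjusted p = 0.0164 by limma, and 0.0645 without P replicate 1).

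Genes of apoptosis moved in both directions. Of 16 tested BCL2 family genes 4 rose and 2 fell, with a median of 0.11, beside 13.9% and 14.2% of all nuclear genes. So few calls do not set the family apart from that background. The pore-forming members Bax and Bak1 averaged 61.6 ± 2.36 and 34.3 ± 0.579 FPKM in P_ES50 against 47.5 ± 0.959 and 26.7 ± 1.20 FPKM in P (0.37 ± 0.06 and 0.35 ± 0.07). The guardian Bcl2l1 rose by 0.32 ± 0.09 (adjusted p = 0.0193 by limma, and 0.0575 to 0.0857 without P_ES50 replicate 2, P_ES50 replicate 3 or P replicate 2). Bmf, a BH3-only protein released from the cytoskeleton, had 1.13, 1.27 and 1.599 FPKM in P_ES50 and 4.81, 4.91 and 4.29 in P (-1.29 ± 0.20, adjusted p = 1.82e-04 by limma). Bcl2 stood at 2.30 ± 0.488 FPKM in P_ES50 and 2.52 ± 0.189 in P (-0.10 ± 0.20, adjusted p = 0.760 by limma). The death receptor Fas averaged 4.37 ± 0.502 FPKM in P_ES50 and 8.46 ± 0.208 in P (-0.82 ± 0.08).

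Targets of p53 were divided, with 6 that rose and 5 that fell of 22, beside 13.9% and 14.2% of all nuclear genes. Gadd45a, a growth arrest gene, had 113, 121 and 118 FPKM in P_ES50 and 51.6, 54.7 and 54.8 in P (1.11 ± 0.05), while its relatives Gadd45b and Gadd45g changed by -0.87 ± 0.04 and -0.84 ± 0.08. The cell cycle inhibitor Cdkn1a averaged 132 ± 6.64 FPKM in P_ES50 and 92.8 ± 2.87 in P (0.50 ± 0.05), and the stress kinase Plk3 rose by 1.31 ± 0.17. Of 41 genes of G2/M and mitosis 11 fell and 2 rose, with a median of -0.10. Mki67, the proliferation marker, averaged 30.2 ± 2.20 FPKM in P_ES50 and 40.2 ± 2.70 in P (-0.40 ± 0.09), and Kif20a, a kinesin of cytokinesis, fell by 0.40. Of 42 genes of G1/S and DNA replication 10 rose and 2 fell. One of the 2 was Ccnd1, cyclin D1, with 116 ± 4.73 FPKM in P_ES50 and 151 ± 1.10 in P (-0.37 ± 0.04).

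Markers of cardiac hypertrophy had no common direction, with 5 that rose and 4 that fell of 18, beside 13.9% and 14.2% of all nuclear genes. Nppb, the gene of B-type natriuretic peptide, had 2.05, 0.906 and 1.39 FPKM in P_ES50 and 3.58, 3.67 and 3.52 in P (-0.93 ± 0.16, adjusted p = 4.30e-04 by limma). Acta1, skeletal actin, averaged 6.08 ± 0.680 FPKM in P_ES50 and 4.65 ± 0.375 in P (0.32 ± 0.09, adjusted p = 0.0173 by limma, and 0.0667 to 0.0827 without P_ES50 replicate 1, P_ES50 replicate 2 or P replicate 2).

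Gene length and level went with the direction of change over all 10803 tested protein-coding genes. Of genes under 1000 bases 23.1% rose and 4.19% fell, with a median of 0.18. Of genes of 8000 bases or more 7.24% rose and 27.1% fell, with a median of -0.10. The classes between stepped evenly, with 17.3% and 10.4% at 1000 to 2000 bases, 13.0% and 17.2% at 2000 to 4000, and 9.03% and 23.7% at 4000 to 8000, the share that rose given before the share that fell. Of genes with a mean level of at least 100 FPKM 58.7% rose and 17.0% fell, and of those at 1 to 10 FPKM 5.90% rose and 14.6% fell. ES50 versus NC showed the same order by length, with medians of 0.74 under 1000 bases and -0.83 from 8000 bases, and P_ES10 versus P did not, with 0.04 and 0.06. The labels give no RNA quality values, and the part of RNA quality in this pattern was not tested.

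**Figure D3:**
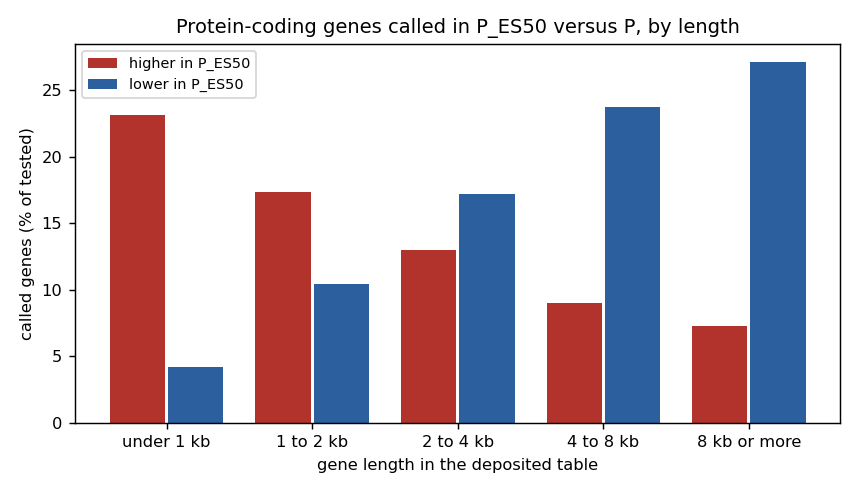
Share of tested protein-coding genes that rose (red) or fell (blue) in P_ES50 versus P, in percent, by gene length in the deposited table. Under 1 kb 23.1% rose and 4.19% fell, and at 8 kb or more 7.24% rose and 27.1% fell.

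The lower dose allows the levels to be read in order. P_ES10 and P_ES50 are both set against P and share its libraries, so their values are given side by side. The shares of all nuclear genes given next are the background of each list count by dose. Scaled to nuclear reads, P_ES10 versus P had more genes lower than higher. On that scale P_ES50 versus P_ES10 had more higher than lower, each the reverse of the deposited scale. The list counts by dose were not repeated under other settings. For NRF2 targets 11 rose and 0 fell after 10 pulses (median 0.26), against a background of 13.1% higher and 9.69% lower, and 19 rose after 50. Hmox1 averaged 149 ± 4.85 FPKM in P, 1035 ± 31.5 in P_ES10 and 2003 ± 21.8 in P_ES50. Nqo1 had 143 ± 0.803, 137 ± 2.57 and 356 ± 16.2 FPKM at 0, 10 and 50 pulses, and its change after 10 pulses was not called (-0.07, adjusted p = 0.363 by limma). Slc7a11 had 1.58 ± 0.107, 2.32 ± 0.264 and 10.3 ± 0.0901 FPKM at 0, 10 and 50 pulses. Directly compared, 20 of 21 NRF2 targets were higher in P_ES50 than in P_ES10 and 0 lower, where 10.3% of nuclear genes were higher and 12.9% lower. Gdf15 was likewise higher in P_ES50 than in P_ES10 (2.15, adjusted p = 6.18e-07 by limma), whereas the difference for Chac1 was not called (0.06, adjusted p = 0.689 by limma).

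Other programmes were lower after 50 pulses than after 10. Of the immediate early genes 18 rose after 10 pulses and 11 after 50, with medians of 0.72 and 0.23, and 13 were lower in P_ES50 than in P_ES10 and 3 higher. Fos averaged 8.38 ± 0.966 FPKM in P, 45.8 ± 2.76 in P_ES10 and 5.63 ± 0.490 in P_ES50. Hspa1b averaged 0.855 ± 0.0436 FPKM in P, 9.68 ± 0.928 in P_ES10 and 0.329 ± 0.239 in P_ES50. For cholesterol synthesis 16 genes rose and 0 fell after 10 pulses (median 0.58), and 15 were lower and 0 higher in P_ES50 than in P_ES10. Idi1 averaged 3.82 ± 0.0260, 19.7 ± 1.34 and 6.06 ± 0.752 FPKM at 0, 10 and 50 pulses.

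The matrix and YAP genes separated the doses as well. After 10 pulses 13 matrix genes rose and 8 fell, after 50 pulses 1 rose and 26 fell, and 21 were lower and 0 higher in P_ES50 than in P_ES10. Ahnak averaged 75.6 ± 3.67 FPKM in P, 130 ± 2.62 in P_ES10 and 37.7 ± 0.666 in P_ES50. Amotl2 averaged 23.7 ± 0.920, 27.7 ± 1.39 and 6.72 ± 0.640 FPKM at 0, 10 and 50 pulses. Cyr61 fell at both doses, with 112 ± 1.57, 71.0 ± 1.74 and 17.1 ± 1.62 FPKM, and Ctgf with 84.8 ± 2.41, 65.2 ± 0.912 and 19.7 ± 1.53. Ankrd1 rose at both doses, at 66.5 ± 2.67, 125 ± 6.76 and 115 ± 8.02 FPKM (P_ES50 versus P_ES10: -0.13, not called, adjusted p = 0.126 by limma).

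**Figure D4:**
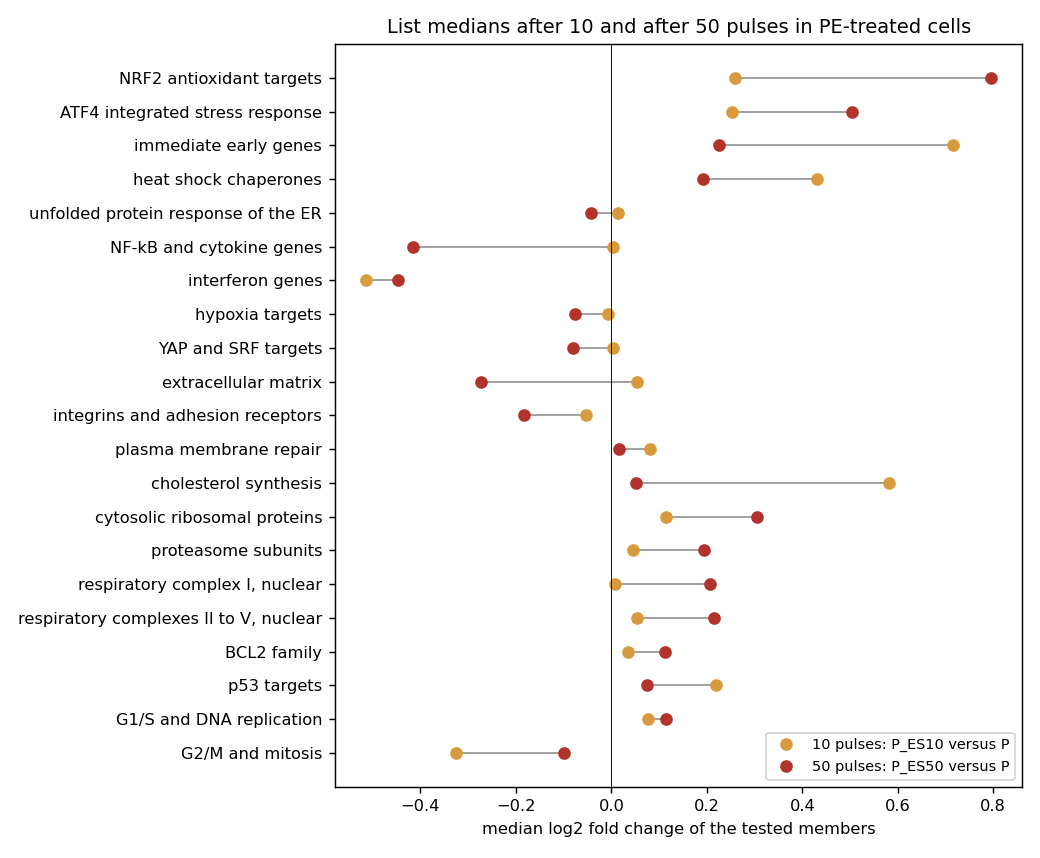
Median log2 fold change of the tested members of 21 gene lists after 10 pulses (P_ES10 versus P, orange) and after 50 pulses (P_ES50 versus P, red), which share the P libraries. NRF2 targets lie at 0.26 after 10 pulses and 0.80 after 50, cholesterol synthesis at 0.58 and 0.05, and extracellular matrix at 0.05 and -0.27. Plasma membrane repair, at 0.02 after 50 pulses, was at -0.10 after quantile normalization.

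The same 50 pulses without PE gave another picture for leading genes, though most genes called with PE kept their direction. ES50 and NC share no library with P_ES50 and P. In ES50 versus NC 8551 nuclear genes (72.0%) were called, with 31.7% of all nuclear genes higher and 40.2% lower. Of the 1651 genes that rose in P_ES50, 1025 (62.1%) rose and 445 (27.0%) fell in ES50. Of the 1691 that fell, 1163 (68.8%) fell and 238 (14.1%) rose in ES50. The difference between both responses, tested as an interaction of PE and pulses, was called for 7006 nuclear genes (59.0%), above 0 for 31.2% and below 0 for 27.8%. ES50 libraries held only 1230554 to 1466851 nuclear reads, and their replicates correlated at 0.945 to 0.952. The median nuclear gene was at -0.13 in ES50 versus NC as deposited and at -2.44 when scaled to total reads. A rise in ES50 is thus a rise within the nuclear RNA.

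Stress and YAP genes were among those with a large interaction. Hmox1 averaged 2003 ± 21.8 FPKM in P_ES50 and 149 ± 4.85 in P, but 78.8 ± 13.3 in ES50 and 329 ± 10.3 in NC, and its interaction was 5.80 ± 0.12 (adjusted p = 1.24e-14 by limma). On the deposited scale Cyr61 fell with PE and rose without it, with 60.7 FPKM on average in ES50 and 36.9 in NC. Ctgf had 116 FPKM in ES50 and 37.8 in NC. The interactions of Cyr61 and Ctgf were -3.35 ± 0.09 and -3.64 ± 0.10. Of 37 matrix genes 26 fell with PE and 37 without, where 14.2% and 40.2% of all nuclear genes fell: the list's median was -0.27 in P_ES50 versus P and -1.89 in ES50 versus NC, and the interaction was called above 0 for 34 and below 0 for 1. For Col3a1 the changes were -0.43 ± 0.04 with PE and -3.09 ± 0.04 without, with an interaction of 2.66 ± 0.06. Ankrd1 rose in both, by 0.77 ± 0.06 with PE and by 3.95 ± 0.06 without.

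**Figure D5:**
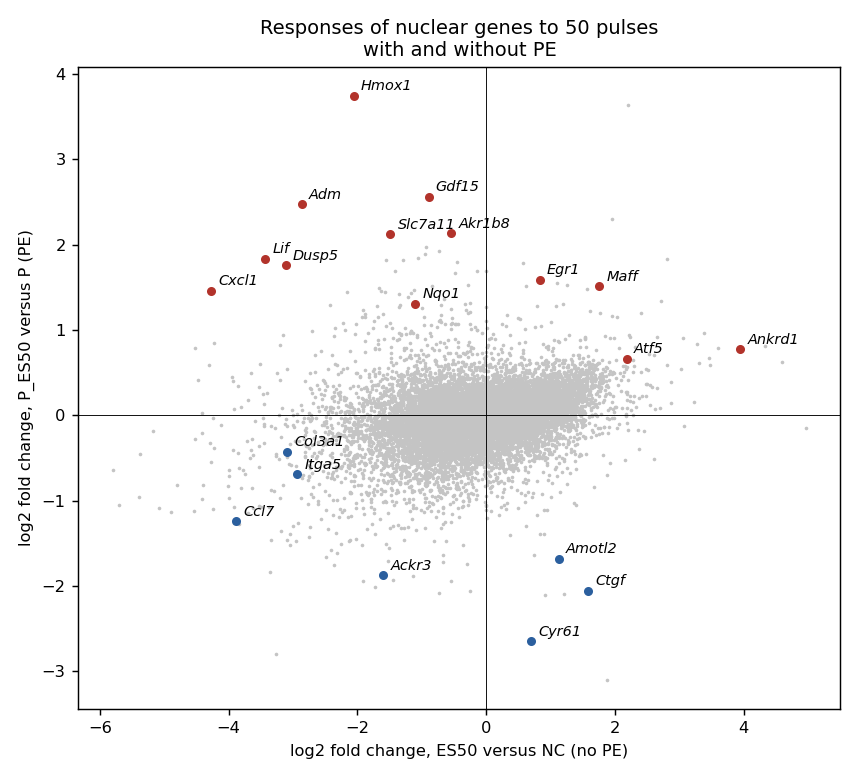
Log2 fold change of each tested nuclear gene after 50 pulses with PE (P_ES50 versus P, vertical) and without PE (ES50 versus NC, horizontal). Named genes are red where they rose and blue where they fell with PE: Hmox1, Adm, Lif and Dusp5 lie at the upper left, Cyr61, Ctgf and Amotl2 at the lower right, and Maff, Egr1, Atf5 and Ankrd1 rose in both.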

How the data were processed

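The authors deposited FPKM per gene, 1 column per library, for 32545 genes, of which 37 are mitochondrial. Poly(A) RNA was captured on poly-T beads and primed with random hexamers, per the labels' protocols, and the submitters' processing notes name build Rnor 6.0. For aligner, counting tool and annotation release: not given in the sources used here. Multiplying FPKM by gene length returned whole reads for 100% of genes (tolerance 0.01), so reads were recovered, at 14004929 to 17247201 per library. Precision of low genes is limited by these reads, and counting error is the least error they have. Genes reaching 1 FPKM in 3 or more libraries were tested as log2(FPKM + 1) by limma 3.58.1 in R 4.3.3 (mean-variance trend, 6 group means, 18 libraries, 12 residual degrees of freedom), with Benjamini-Hochberg adjustment over all 11917 tested genes, and the steps were tested on simulated data. Tables and plots used Python 3.11.15.

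The members, the gene lists and the naming rule were all chosen with earlier results of these data known. The rule takes the 12 largest changes each way at 10 FPKM or more with non-overlapping libraries, the 5 largest differences in FPKM each way, up to 5 members of each list by adjusted p, 20 fixed genes and the 5 largest interactions each way. Gclm, Osgin1, Cebpb, Nuak2, Ajuba, Plk3, Gsta4, Abcc4, Ern1, Pdia3, Srf, Ier5l, Junb and Tnni3 fall outside it and were chosen after their values were seen. Some genes that the rule takes are not reported here. Promoters were matched by symbol. Alternatives varied the pseudocount, the filter, the scaling, the libraries in the fit and a replicate block.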

Additional observations from a re-analysis of the deposited data

Results flagged for a closer look

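For some genes the response to 50 pulses was reversed between cells with and without PE. For 683 of 11883 tested nuclear genes the interaction of PE and pulses was called by limma, and P_ES50 versus P and ES50 versus NC were both called in opposite directions. Of these, 445 rose with PE and fell without it, and 238 did the reverse. More genes kept their direction: 1025 were called higher in both comparisons and 1163 lower in both. Scaling to total reads moves the median interaction of all nuclear genes to 1.65, against 0.06 as deposited, and the ES50 libraries held the fewest nuclear reads. It moves the median of ES50 versus NC to -2.44, against -0.13 as deposited. The 683 genes were not counted again on that scale.

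Among the named genes, 27 were in the class that rose with PE, each with the log2 interaction given here. The NRF2 and ATF4 genes were Hmox1 (5.80), Slc7a11 (3.61), Srxn1 (3.37), Nqo1 (2.41), Txnrd1 (2.64), Gdf15 (3.46), Chac1 (1.46), Trib3 (1.80), Atf3 (1.89) and Cebpb (1.80), with Akr1b8 (2.68) and Sqstm1 (1.14) beside them. Signalling genes were Adm (5.34), Lif (5.27), Cxcl1 (5.74), Ptgs2 (3.61), Vegfa (2.64), Hif1a (2.03), Ier3 (3.11), Myc (3.11), Fosl1 (3.70), Zfp36 (1.29), Dusp5 (4.87) and Phlda1 (2.36). The others were Col1a2 (2.00), Gadd45a (1.83) and Cdkn1a (0.71). Without PE, Gdf15 had 0, 0 and 0.467 FPKM in ES50 and 0.918, 1.65 and 0.855 in NC, so its fall there rests on few reads. Adm had 0.974, 0.822 and 0.614 FPKM in ES50 and 11.7 to 12.3 in NC. In the ES50 libraries 3 reads per kb of gene length are 1.14 to 1.35 FPKM, above each of these ES50 values.

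In the reverse class 13 named genes fell with PE. The YAP targets were Cyr61 (-3.35), Ctgf (-3.64), Amotl2 (-2.81), Nuak2 (-1.92) and Ajuba (-2.39). The others were Fzd2 (-1.77), Fos (-1.02), Dnajb4 (-0.71), Grsf1 (-0.82), Fastk (-1.34), Gadd45b (-1.15), Gadd45g (-2.53) and Irf7 (-1.18).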

How the results depend on the processing

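The counts of nuclear genes that rose and fell in P_ES50 versus P stayed within 1.5 times of 1651 and 1691 with a pseudocount of 0.1, with no filter, with quantile normalization, with nuclear reads as the scale and with the 6 libraries alone. Leaving out 1 of the 6 libraries gave 1228 to 1390 higher and 1216 to 1408 lower, and a mitochondrial share 42.6 to 44.1 points higher in P_ES50 than in P. With total reads as the scale the fit called 64 genes higher and 10461 lower, the mitochondrial reads being part of the divisor. Without the 3 ES50 libraries in the fit 2548 were higher and 2805 lower, and that fit called 4704 genes in P_ES10 versus P (as reported, 2713) and 4795 in P_ES50 versus P_ES10 (as reported, 2757). Scaled to nuclear reads, P_ES10 versus P had 1069 higher and 1672 lower (as reported, 1562 and 1151), and P_ES50 versus P_ES10 had 1624 higher and 1196 lower (as reported, 1222 and 1535). With the replicate number as a block 1621 rose and 1647 fell, and 1713 and 1749 with the 6 libraries alone. Same-numbered libraries of P_ES50 and P correlated at -0.01, 0.02 and 0.01 in their deviations. No shared effect of the number was seen, which does not show that the libraries are unpaired. The fit of 6 libraries with a block, the adjustment over nuclear genes alone and the dose comparisons without ES50 were chosen after seeing the data.

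Scaling to total reads, which puts the median nuclear gene at -0.77, turned the log2 change negative for Gstp1 -0.16, Ftl1 -0.10, Atf5 -0.23, Ddit3 -0.19, Atf3 -0.055, Hif1a -0.033, Vegfa -0.59, Zfp36 -0.015, Ankrd1 -0.12, S100a11 -0.57, Hspb1 -0.56, Dnajb1 -0.48, Idi1 -0.21, Rplp0 -0.36, Rpsa -0.49, Uqcrq -0.34, Cox8a -0.57, Ndufb7 -0.57, Smdt1 -0.30, Vdac1 -0.67, Dnm1l -0.71, Pink1 -0.46, Tfam -0.55, Bax -0.52, Bak1 -0.53, Bcl2l1 -0.53, Cdkn1a -0.39, Acta1 -0.45, Myod1 -0.30, Tnnt2 -0.61, Sqstm1 -0.20, Tagln -0.55 and Ptgs2 -0.47. Quantile normalization turned S100a11 (-0.32), Rpsa (-0.16) and Tagln (-0.20). Bcl2, not called at -0.10, was 0.0023 without P_ES50 replicate 2 and -0.21 without replicate 1. Quantile normalization also raised the members lower to 12 (6 as reported) for the unfolded protein response and to 15 (6 as reported) for plasma membrane repair. Apart from the divisor used, the cause was not tested. Depth limits genes with few reads: over 3 libraries each, Hspa1b had 36 in P_ES50 and 168 in P, and Nppb 43 in P_ES50 and 193 in P.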
